A study of Mus musculus with 12 samples.

Results

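Interferon-stimulated genes were followed in mouse pancreatic neuroendocrine tumors (PanNETs) as a set of 39 genes, chosen by symbol and matched to the Ensembl identifiers of the count tables. All 39 were found among the 38924 genes counted in each tumor, and all 39 passed the filter on low counts that left 16645 genes for testing. The set covers interferon-activated transcription factors, sensors of foreign nucleic acid, the OAS, IFIT, MX, GBP and IRG families, the ISG15 system, the PARP9 and DTX3L pair with PARP14, and the chemokine Cxcl10.

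RNA was sequenced from 12 tumors of C57Bl6 RIP1Tag2 mice, in which the rat insulin promoter drives a viral oncogene in pancreatic beta cells, so that every group, the controls included, carries the transgene. Of these, 4 were controls from saline-treated mice, 4 were from mice given sunitinib, an inhibitor of VEGF and PDGF receptor kinases, and 4 from mice given rapamycin, an mTOR inhibitor, together with sunitinib (R+S). The labels put the mice at 15.5 weeks when dosing started, with 4 days of dosing. Tumors are called by their group and the number in their label: controls 1 to 4, sunitinib 5, 6, 8 and 12, and R+S 4, 5, 7 and 10. The titles also carry prefixes, 1 for all 4 controls, 2 for the sunitinib tumors (sunitinib 12 alone has its own) and 3 for the R+S tumors (R+S 5 and 7 share 1). The meaning of these prefixes is not stated, and since no prefix crosses groups, prefix and treatment cannot be told apart. The p-values treat the tumors as independent, and nothing in the labels says that tumors of a group came from separate mice, so they measure only the spread between these samples.

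Between 31872342 and 44215054 reads per tumor fell on genes. One library stood apart: the 8 beta-cell markers, among them the insulin genes Ins1 and Ins2, summed to 1663 CPM (read counts scaled to a common library size) in sunitinib 6 and to between 29967 and 75720 CPM in the other 11 tumors. It was also the library least like the rest of its group, with Pearson's r of log2 CPM of 0.872 to 0.895 against the other sunitinib tumors, which correlated at 0.957 to 0.978 among themselves. The counts of genes called are therefore given with and without sunitinib 6, as are the values of several single genes. In bulk tumor RNA, fewer cells of a type and less RNA per cell cannot be told apart.

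Interferons are secreted proteins that alert cells to viruses and other threats. Type I and type III interferons act through receptor-bound kinases on a complex that holds STAT2 and IRF9 and binds the interferon-stimulated response element (ISRE) in the promoters of target genes, whereas interferon gamma acts mainly at gamma-activated sites (GAS). The target genes encode sensors of infection, inhibitors of viral replication, chemokines and several components of the pathway itself. In tumors the same genes are expressed by cancer cells, endothelial cells and leukocytes alike.

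Promoters were examined because the ISRE is the element these genes share by description. RefSeq windows on GRCm38.p6, from 250 bases before to 50 bases after a transcription start, were at hand for 28 of the 39 genes. The ISRE core, 2 copies of GAAA separated by any 2 bases, was searched on both strands with overlapping copies counted. It occurred in at least 1 window of 16 of the 28 genes (57.1%, exact binomial 95% confidence interval 37.2 to 75.5%), beside 3.99% of all 27025 genes with a window. The GAS motif TTCNNNGAA, searched likewise, occurred in 7 of the 28 (25%), beside 9.55% of all genes. The promoters shown are those of the genes with the smallest adjusted p-values that hold the core, and 1 without it, so that the element can be read beside the values of Ifit3, Bst2, Ifit1, Ddx58 and Ifi44. Each runs 5′ to 3′ in the direction of the gene and is in lower case with the ISRE core in capitals, except that in Ifi44 the capitals mark the shorter core AANNGAAA:
Ifit3, chr19:34583359-34583528, + strand: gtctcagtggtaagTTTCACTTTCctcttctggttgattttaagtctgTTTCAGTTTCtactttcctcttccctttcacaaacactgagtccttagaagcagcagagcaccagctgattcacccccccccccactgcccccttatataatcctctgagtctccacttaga
Bst2, chr8:71537473-71537642, - strand: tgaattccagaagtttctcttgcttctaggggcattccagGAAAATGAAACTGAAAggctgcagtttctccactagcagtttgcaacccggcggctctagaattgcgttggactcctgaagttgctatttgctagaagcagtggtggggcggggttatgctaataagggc
Ifit1, chr19:34640701-34640870, + strand: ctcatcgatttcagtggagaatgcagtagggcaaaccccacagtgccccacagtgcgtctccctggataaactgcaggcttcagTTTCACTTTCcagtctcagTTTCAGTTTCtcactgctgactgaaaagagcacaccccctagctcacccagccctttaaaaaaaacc
Ddx58, chr4:40239814-40239983, - strand: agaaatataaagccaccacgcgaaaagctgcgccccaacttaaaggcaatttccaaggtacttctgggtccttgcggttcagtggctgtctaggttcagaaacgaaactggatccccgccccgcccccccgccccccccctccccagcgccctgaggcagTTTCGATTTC
Ifi44, chr3:151749951-151750120, - strand: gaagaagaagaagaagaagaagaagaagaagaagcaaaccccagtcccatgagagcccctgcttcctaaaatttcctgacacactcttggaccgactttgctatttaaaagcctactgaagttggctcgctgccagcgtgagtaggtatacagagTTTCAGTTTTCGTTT
The cores of Ifit3 began 156 and 122 bases before the RefSeq start, those of Ifit1 104 and 85 bases before it, and all 4 were read on the strand opposite to the gene. Bst2 held 2 overlapping copies, at 130 and 124 bases before its start, and Isg15, not shown, 3 overlapping copies, at 78, 72 and 66. In Ddx58 the core lay 3 bases after the start. The shorter cores of Ifi44 shown overlap and began 55 and 48 bases before its start, and another lay 9 bases before it, outside the stretch shown. Of the 7 genes with a window that fell with sunitinib by the test described next, 5 held the core, beside 11 of the 21 that did not pass it. The shorter core, which is part of the ISRE core, occurred in 23 of the 28 genes (82.1%) and in 26.7% of all genes. These matches describe letters in a window and are not evidence of binding.

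The first question was how 4 days of sunitinib left the interferon-stimulated genes. They were lower: 12 of the 39 fell and none rose, with adjusted p-values throughout from the quasi-likelihood test of edgeR with Benjamini-Hochberg adjustment over all 16645 genes and a threshold of 0.05. Across all genes tested, 2.55% fell and 1.93% rose. The log2 fold change was below 0 in 37 of the 39 (46.7% of all genes), with a median of -1.03 and a range of -3.18 to 0.02, beside a median of 0.03 over all genes. At an unadjusted p under 0.05, 25 were lower and 0 higher, where 3247 of the 16645 genes passed in either direction. DESeq2, which tested 38 of the 39, called 20 lower and 0 higher, beside 3.9% and 4% of all genes. In 17 of the 39, every sunitinib-treated tumor was below every control, which held for 5.76% of all genes.

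In R+S-treated tumors fewer of the genes passed the test. Against controls 4 of the 39 fell and none rose, where 2.61% of all genes fell and 1.55% rose. Their log2 fold changes ran from -1.93 to 0.44 around a median of -0.59, with 31 of the 39 below 0, beside a median of 0.01 and 49% below 0 over all genes. At an unadjusted p under 0.05, 14 were lower and 1 higher, where 3347 of the 16645 genes passed in either direction. DESeq2 called 8 of 38 lower and 0 higher, beside 5.21% and 3.61% of all genes. In 16 of the 39 every R+S tumor was below every control, beside 11.9% of all genes, and in 1, Eif2ak2, every R+S tumor was above (11.6% of all genes). Against sunitinib alone, 1 gene, Ddx58, rose and none fell, a share like that of all genes, of which 2.63% rose and 4.58% fell, and 4 of the 39 log2 fold changes were below 0 (51.8% of all genes), with a median of 0.49 beside -0.02 over all genes. At an unadjusted p under 0.05, 13 were higher and 0 lower, where 5067 of the 16645 genes passed in either direction. DESeq2 called 9 of 38 higher and 0 lower, beside 6.97% and 10.3% of all genes. Every R+S tumor was above every sunitinib tumor in 6 genes (8.9% of all genes), Ddx58, Trim25, Oas2, Mx1, Parp14 and Ifi44, and below in none (9.73% of all genes). The mean log2 CPM of the R+S group lay between those of sunitinib and control in 29 genes, above both in 8 (Irf1, Ifih1, Ddx58, Trim25, Eif2ak2, Samd9l, Parp9 and Dtx3l) and below both in 2 (Ifi35 and Cxcl10). Both comparisons with control share the same 4 controls.

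**Figure D1:**
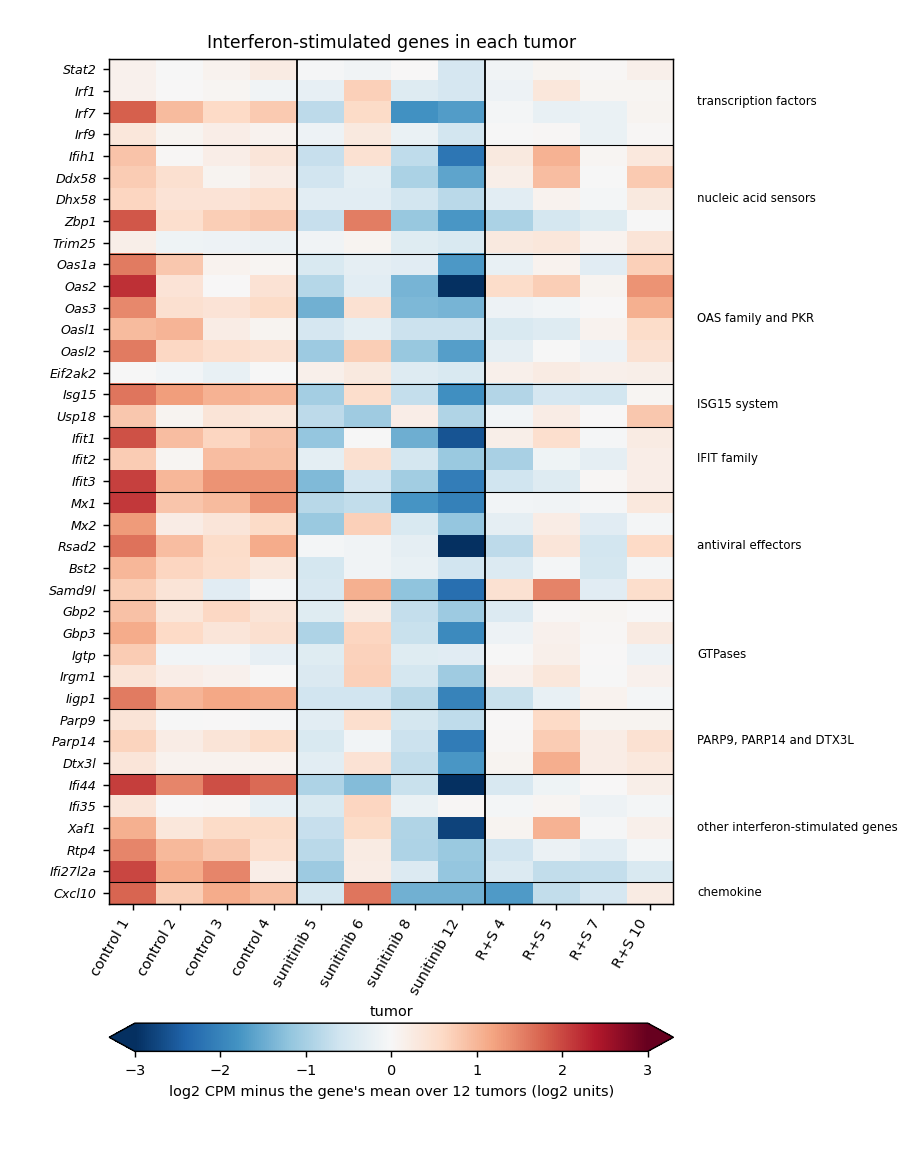
Heat map of the 39 genes (rows, grouped by role) in the 12 tumors (columns, grouped by treatment). Color gives log2 CPM minus the gene's mean over the 12 tumors, in log2 units, with values past 3 in either direction drawn at the end of the scale. Control 1 is the reddest column and sunitinib 12 the bluest, and sunitinib 6 differs from the other 3 sunitinib tumors.

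Without sunitinib 6 these counts grew. In the other 3 sunitinib tumors, 34 of the 39 genes were below every control, whereas sunitinib 6 was below every control in 19, within their range in 13 and above it in 7 (Irf1, Eif2ak2, Samd9l, Irgm1, Parp9, Dtx3l and Ifi35). The shares of all genes in these places were not computed, and 3 tumors lie apart from 4 controls more readily than 4 do. When sunitinib 6 was left out, 26 genes fell against control (3.34% of all genes), all 39 log2 fold changes were below 0 and their median was -1.47. The genes that joined the 12 were Irf7, Ifih1, Zbp1, Oas2, Oas3, Oasl2, Ifit2, Mx2, Gbp2, Gbp3, Irgm1, Parp14, Xaf1 and Cxcl10. In R+S against control, 11 genes then fell (5.56% of all genes). In R+S against sunitinib, 18 genes then rose (4.17% of all genes), with a median of 0.74 and none below 0. Leaving out sunitinib 12 instead, the lowest of the 12 tumors in 33 genes, 8 genes fell against control (1.98% of all genes), with a median of -0.86. In R+S against sunitinib none then rose (1.16% of all genes), with a median of 0.26 and 10 of the 39 below 0. For these fits the share of all genes below 0 was not computed. Leaving out control 1, which had the highest level of the 12 tumors in 24 of the 39 genes, left 6 genes that fell with sunitinib (2% of all genes) and none with R+S against control (2.05% of all genes), while 2, Ddx58 and Mx1, rose in R+S against sunitinib (1.89% of all genes).

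Among the transcription factors, Irf7, the regulator that amplifies interferon production, had the largest difference, and none of the 4 passed the threshold with all 12 tumors. Irf7 was at 64.2, 35.5, 27.9 and 32.1 CPM in controls 1 to 4, at 10.7, 27.5, 5.17 and 5.71 CPM in sunitinib 5, 6, 8 and 12, and at 17.7, 15.8, 16.2 and 19.4 CPM in R+S 4, 5, 7 and 10. Every treated tumor was below every control, sunitinib 6 only just. Its log2 fold change was -1.70 ± 0.48 (SE, adjusted p = 0.0754) with sunitinib, and without sunitinib 6 it was -2.47 (adjusted p = 0.00114). The other 3 moved little with all 12 tumors. Irf1, a factor strongly induced by interferon gamma and the most abundant of the 4 per length of transcript, was at 53.8, 48.9, 51.1 and 45.4 CPM in controls, 40.9, 79.7, 37.4 and 34.6 CPM in sunitinib tumors and 44.1, 62.1, 50.5 and 51.1 CPM in R+S tumors. Sunitinib 6 was the highest of all, its 3 group mates the lowest, and the log2 fold change with sunitinib was -0.05 (adjusted p = 0.928). Without sunitinib 6 it was -0.40 (95% confidence interval -0.68 to -0.13, adjusted p = 0.104). In R+S against sunitinib it was 0.11, and 0.47 without that tumor (adjusted p = 0.0433). Stat2 and Irf9, whose products bind together at the ISRE, had log2 fold changes of -0.26 and -0.31 with sunitinib and -0.08 and -0.22 with R+S.

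Among the 5 nucleic acid sensors and regulators, Ddx58 and Dhx58 fell with sunitinib, and Ddx58 rose in R+S against sunitinib. Ddx58, which encodes the RNA sensor RIG-I, was at 34.9, 28.6, 21.6 and 24.1 CPM in controls, 13.7, 16.6, 10.7 and 6.83 CPM in sunitinib tumors and 23.2, 38.96, 20.3 and 35.4 CPM in R+S tumors. All 4 sunitinib tumors were below all controls and all R+S tumors, while control and R+S tumors overlapped. Ddx58 was 2.28-fold lower with sunitinib than in control (log2 fold change -1.19 ± 0.29, adjusted p = 0.0406), 2.46-fold higher with R+S than with sunitinib (1.30 ± 0.29, adjusted p = 0.0309) and at 0.11 ± 0.29 in R+S against control. Without sunitinib 8, 12 or any single R+S tumor, the rise against sunitinib no longer passed the threshold. Its log2 fold changes there were 1.11 to 1.45. In these fits fewer genes of any kind rose in that comparison, 0% of all genes without R+S 4, 5 or 7. The share was 0.757% without R+S 10, 1.16% without sunitinib 12 and 1.62% without sunitinib 8, beside 2.63% with all 12 tumors. The fall of Ddx58 with sunitinib passed the threshold only without sunitinib 6, R+S 5 or R+S 7. Its log2 fold changes were -1.39 to -1.001 when any 1 of the 12 tumors was left out.

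Dhx58 encodes LGP2, a relative of RIG-I without signaling domains that tunes the other sensors. It was at 15.5, 13.2, 13.0 and 14.1 CPM in controls, 7.94, 7.93, 6.67 and 5.58 CPM in sunitinib tumors and 7.85, 10.6, 9.46 and 12.2 CPM in R+S tumors. Every treated tumor was below every control, with a tight range in each group. The log2 fold change was -0.99 ± 0.18 with sunitinib (adjusted p = 0.0088) and -0.48 ± 0.18 with R+S (adjusted p = 0.167). Ifih1, which encodes the long-RNA sensor MDA5, followed Ddx58 without passing the threshold, at -0.91 ± 0.45 with sunitinib and 0.99 ± 0.45 in R+S against sunitinib. Trim25, a ubiquitin ligase that acts on RIG-I, was the most abundant of the 5 per length, at 102, 82.6, 81.0 and 79.6 CPM in controls, 82.9, 94.6, 69.99 and 65.6 CPM in sunitinib tumors and 111, 114, 96.1 and 118 CPM in R+S tumors. R+S tumors were above all sunitinib tumors and overlapped only control 1, with a log2 fold change of 0.49 ± 0.14 against sunitinib (adjusted p = 0.0508). Zbp1, a sensor of Z-form nucleic acid, was at 7.85 CPM in sunitinib 6, beside 0.770 to 1.66 CPM in its group and 3.84 to 9.99 CPM in controls. Its log2 fold change with sunitinib was -1.01, and -2.25 without sunitinib 6 (adjusted p = 0.0081).

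In the OAS family, whose enzymes make the short oligoadenylates that activate RNase L, 1 of 5 genes fell with sunitinib. Oasl1, a family member without that enzyme activity, was at 11.9, 12.5, 7.18 and 6.45 CPM in controls, 4.29, 5.00, 3.93 and 3.91 CPM in sunitinib tumors and 4.47, 4.65, 6.64 and 8.99 CPM in R+S tumors. The sunitinib tumors were close together and all below the controls, whereas R+S tumors overlapped both. Its log2 fold change with sunitinib was -1.15 ± 0.29 (adjusted p = 0.0488), and the call held only without control 4, sunitinib 6 or R+S 10 (log2 fold changes of -1.30 to -0.99 with any 1 tumor left out). Oas2 had a larger difference with more spread: 40.1, 11.7, 8.80 and 11.9 CPM in controls, 4.80, 7.02, 3.32 and 0.898 CPM in sunitinib tumors and 12.8, 14.7, 9.30 and 22.4 CPM in R+S tumors. All R+S tumors were above all sunitinib tumors, in the range of controls (-2.17 ± 0.62 with sunitinib, adjusted p = 0.0779, and 1.88 ± 0.61 in R+S against sunitinib, adjusted p = 0.0747). Oas1a, Oas3 and Oasl2 had log2 fold changes of -1.37, -1.48 and -1.32 with sunitinib and of -0.64, -0.49 and -0.83 with R+S, and none passed the threshold. Eif2ak2, which encodes the RNA-activated kinase PKR, was the most abundant of these 6 per length, at 32.4, 31.1, 28.3 and 32.6 CPM in controls, 36.2, 40.4, 25.3 and 23.8 CPM in sunitinib tumors and 36.3, 39.04, 36.5 and 37.4 CPM in R+S tumors. R+S tumors were above all controls, while sunitinib tumors spread around both, with log2 fold changes of 0.02 with sunitinib and 0.26 with R+S (adjusted p = 0.967 and 0.384).

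Isg15 encodes a ubiquitin-like protein that is attached to other proteins during the interferon response, and Usp18 the enzyme that removes it and restrains the type I receptor. Isg15 was at 9.97, 7.80, 6.70 and 6.51 CPM in controls, 1.56, 4.70, 1.95 and 0.866 CPM in sunitinib tumors and 1.75, 2.27, 2.20 and 3.39 CPM in R+S tumors. Every treated tumor was below every control, and the treated groups overlapped. Its log2 fold change was -1.77 ± 0.45 with sunitinib (adjusted p = 0.0462) and -1.69 ± 0.44 with R+S (adjusted p = 0.0552). With 1 tumor left out, the call with sunitinib held only without sunitinib 6 (-2.40, adjusted p = 0.00132), and was -1.50 without sunitinib 12. Usp18, the more abundant of the pair per length, was at 50.03, 30.3, 37.6 and 36.5 CPM in controls, 16.6, 13.8, 32.7 and 15.3 CPM in sunitinib tumors and 27.0, 33.4, 28.8 and 50.3 CPM in R+S tumors. Sunitinib 8 lay within the control range and the other 3 sunitinib tumors below it. Its log2 fold changes were -0.98 ± 0.29 with sunitinib (adjusted p = 0.0947) and 0.83 ± 0.29 in R+S against sunitinib (adjusted p = 0.0908).

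The IFIT genes, neighbors on chromosome 19, encode proteins that bind foreign RNA and block its translation, and they held some of the largest differences. Ifit3 was at 16.6, 7.88, 10.2 and 10.1 CPM in controls, 1.56, 2.65, 1.90 and 0.898 CPM in sunitinib tumors and 2.58, 3.00, 4.05 and 4.58 CPM in R+S tumors. No treated tumor reached the lowest control, and only R+S 4 fell into the range of the sunitinib tumors. Ifit3 was 6.38-fold lower with sunitinib (log2 fold change -2.67 ± 0.36, adjusted p = 0.00106) and 3.15-fold lower with R+S (-1.66 ± 0.35, adjusted p = 0.0223). It shares 51.2% of its 50-base words with its copy Ifit3b. Reads that aligned to several places were not counted for any gene, so both levels may be undercounts. Ifit3b fell as well with sunitinib (-2.75 ± 0.51, adjusted p = 0.00868).

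Ifit1 was at 20.7, 10.6, 8.70 and 9.92 CPM in controls, 2.42, 5.50, 1.95 and 0.866 CPM in sunitinib tumors and 6.27, 7.83, 5.38 and 6.51 CPM in R+S tumors. Every treated tumor was below every control, and sunitinib 6 was the only sunitinib tumor that reached the R+S range. The log2 fold change was -2.21 ± 0.48 with sunitinib (adjusted p = 0.0225), -0.94 ± 0.46 with R+S (adjusted p = 0.283) and 1.27 ± 0.47 in R+S against sunitinib (adjusted p = 0.101). Without control 1 or sunitinib 8 the call with sunitinib was lost (-1.86, adjusted p = 0.0604, without control 1). Ifit2, the third member of the cluster, was at -0.95 ± 0.35 with sunitinib and -0.94 ± 0.35 with R+S, neither past the threshold.

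**Figure D2:**
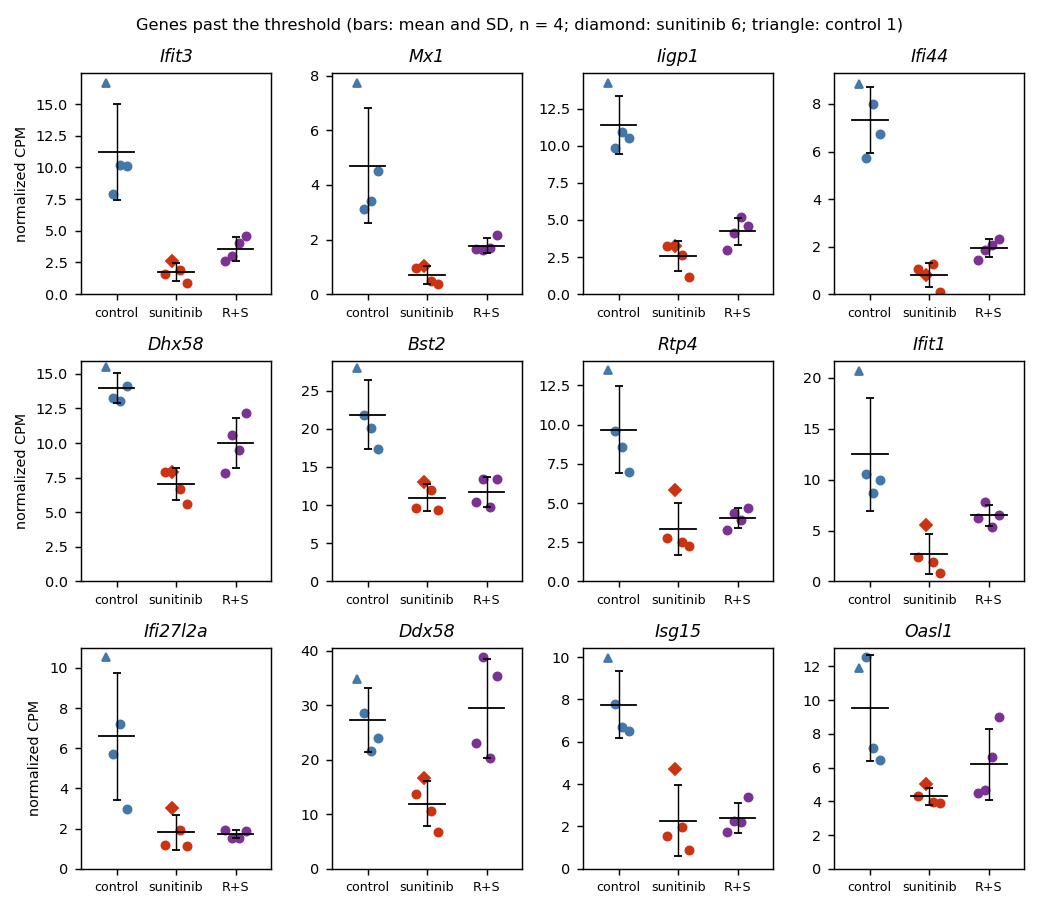
Normalized CPM of the 12 genes past the threshold in any comparison, 1 panel per gene with its own axis from 0, by treatment. Points are tumors, lines and bars are the mean and SD of 4 tumors, the diamond is sunitinib 6 and the triangle control 1. In all panels but that of Ifi27l2a, no sunitinib tumor reached the lowest control.

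Of the antiviral effectors, Mx1 and Bst2 fell. Mx1, a dynamin-like GTPase of which common laboratory mouse strains carry a defective allele, was at 7.72, 3.12, 3.42 and 4.51 CPM in controls, 0.944, 1.02, 0.475 and 0.385 CPM in sunitinib tumors and 1.64, 1.62, 1.69 and 2.18 CPM in R+S tumors. The 3 groups did not overlap at all. Mx1 was 6.60-fold lower with sunitinib (log2 fold change -2.72 ± 0.40, adjusted p = 0.00171), and was at -1.40 ± 0.38 with R+S (adjusted p = 0.0601) and 1.32 ± 0.39 in R+S against sunitinib (adjusted p = 0.0576).

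Bst2 encodes tetherin, which holds budding viruses at the cell surface, and was the most abundant effector per length. It was at 28.0, 21.8, 20.2 and 17.3 CPM in controls, 9.62, 13.0, 12.0 and 9.34 CPM in sunitinib tumors and 10.4, 13.5, 9.74 and 13.4 CPM in R+S tumors. All treated tumors were below all controls, and the treated groups overlapped almost fully. Bst2 fell by 0.99 ± 0.19 on the log2 scale with sunitinib (adjusted p = 0.012) and by 0.89 ± 0.19 with R+S (adjusted p = 0.0254), and the difference between R+S and sunitinib was 0.10 (95% confidence interval -0.32 to 0.52). Rsad2, which encodes viperin, had a log2 fold change of -1.63 ± 0.59 with sunitinib (adjusted p = 0.155), with sunitinib 12 at 0.513 CPM beside 5.01 to 5.82 CPM in its group. Mx2 was at -0.98 ± 0.43 and Samd9l, a growth-restraining antiviral factor, at -0.45 ± 0.60, both short of the threshold. Without sunitinib 6 they were at -1.58 (adjusted p = 0.0172) and -1.39 (adjusted p = 0.135). In R+S against sunitinib, Samd9l was at 0.89, and at 1.83 without sunitinib 6 (adjusted p = 0.0411).

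The interferon-inducible GTPases attack the membranes around intracellular microbes, and 1 of 5 fell. Iigp1 was at 14.2, 9.87, 10.9 and 10.5 CPM in controls, 3.24, 3.23, 2.66 and 1.16 CPM in sunitinib tumors and 3.00, 4.09, 5.19 and 4.60 CPM in R+S tumors. Control levels were apart from all treated tumors, including sunitinib 6. Iigp1 was 4.41-fold lower with sunitinib (log2 fold change -2.14 ± 0.32, adjusted p = 0.00203) and 2.69-fold lower with R+S (-1.43 ± 0.31, adjusted p = 0.0275). Gbp2 and Gbp3, guanylate-binding proteins, were at -0.99 ± 0.28 and -1.10 ± 0.43 with sunitinib (adjusted p = 0.0776 and 0.186). Igtp, the most abundant of the 5 per length, was at 21.8, 12.2, 12.1 and 10.9 CPM in controls, 10.1, 21.0, 10.0 and 10.2 CPM in sunitinib tumors and 12.7, 14.3, 13.1 and 11.6 CPM in R+S tumors, where control 1 and sunitinib 6 stood above otherwise similar tumors. Irgm1, a regulator of the other IRG proteins, was at -0.36 ± 0.30 with sunitinib, and at -0.84 without sunitinib 6 (adjusted p = 0.0157).

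PARP9 and DTX3L form a ubiquitin ligase complex, and their genes sit head to head on chromosome 16 with overlapping ends, near Parp14, which encodes an ADP-ribosyltransferase. None of the 3 passed the threshold. Parp14 was at 39.4, 29.0, 32.2 and 36.5 CPM in controls, 17.9, 23.2, 15.8 and 5.71 CPM in sunitinib tumors and 25.4, 41.8, 29.0 and 33.8 CPM in R+S tumors. All sunitinib tumors were below all controls and all R+S tumors, and controls and R+S tumors overlapped. Its log2 fold changes were -1.13 ± 0.33 with sunitinib (adjusted p = 0.086), -0.08 ± 0.33 with R+S against control, and 1.06 ± 0.33 in R+S against sunitinib (adjusted p = 0.0678). Parp9, the most abundant of the 3 per length, was at 28.4, 21.3, 21.7 and 21.0 CPM in controls, 17.4, 30.5, 15.01 and 12.7 CPM in sunitinib tumors and 21.9, 32.7, 22.8 and 23.0 CPM in R+S tumors. Sunitinib 6 was above every control and its 3 group mates below. Dtx3l was at 23.1 ± 2.20, 15.6 ± 9.05 and 28.6 ± 10.0 CPM (SD, n = 4) in control, sunitinib and R+S tumors. Reads that fitted both genes were tallied as ambiguous and left out of the counts. How many reads of the overlap this concerned is not known, since the strand setting of the counting is not given in the sources used here.

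Ifi44, a cytoplasmic protein gene of the late interferon response, had the largest difference of the 39. It was at 8.86, 5.71, 7.99 and 6.74 CPM in controls, 1.05, 0.801, 1.27 and 0.0963 CPM in sunitinib tumors and 1.44, 1.87, 2.07 and 2.33 CPM in R+S tumors. The 3 groups did not overlap, and sunitinib 12 held 3 reads. Ifi44 was 9.05-fold lower with sunitinib (log2 fold change -3.18 ± 0.54, adjusted p = 0.00464), and was at -1.92 ± 0.51 with R+S (adjusted p = 0.0556) and 1.25 ± 0.51 in R+S against sunitinib (adjusted p = 0.127).

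Rtp4, which encodes a transporter protein for cell-surface receptors, was at 13.5, 9.60, 8.60 and 6.96 CPM in controls, 2.78, 5.80, 2.53 and 2.25 CPM in sunitinib tumors and 3.27, 4.34, 3.89 and 4.70 CPM in R+S tumors. All treated tumors were below all controls. It fell with sunitinib (log2 fold change -1.53 ± 0.33, adjusted p = 0.0199), and was at -1.25 ± 0.33 with R+S (adjusted p = 0.0526). Without control 1, sunitinib 8 or sunitinib 12 the call with sunitinib was lost (-1.33, adjusted p = 0.0567, without control 1). Ifi27l2a, a small mitochondrial membrane protein gene, was at 10.5, 5.71, 7.20 and 2.96 CPM in controls, 1.199, 3.01, 1.93 and 1.12 CPM in sunitinib tumors and 1.94, 1.54, 1.55 and 1.88 CPM in R+S tumors. Control 4 was low and overlapped sunitinib 6, while all R+S tumors were below all controls. Ifi27l2a fell by 1.86 ± 0.41 on the log2 scale with sunitinib (adjusted p = 0.0241) and by 1.93 ± 0.41 with R+S (adjusted p = 0.0234). The call with sunitinib was lost without control 1, control 3 or any sunitinib tumor but sunitinib 6 (adjusted p up to 0.0699).

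Xaf1, a gene linked to apoptosis, had a log2 fold change of -1.19 ± 0.54 with sunitinib (adjusted p = 0.249), and of -1.88 without sunitinib 6 (adjusted p = 0.0368). Ifi35 had the highest level per length of all 39 and was at 42.9, 33.6, 34.6 and 28.7 CPM in controls, 24.4, 52.7, 29.1 and 34.5 CPM in sunitinib tumors and 32.3, 35.2, 30.3 and 32.5 CPM in R+S tumors. The groups overlapped, with a log2 fold change of 0.01 (95% confidence interval -0.45 to 0.47) with sunitinib. Cxcl10, a chemokine that draws CXCR3-bearing T cells, was at 7.23, 3.57, 4.59 and 3.97 CPM in controls, 1.45, 6.55, 0.739 and 0.738 CPM in sunitinib tumors and 0.610, 1.24, 1.47 and 2.53 CPM in R+S tumors. Sunitinib 6 lay within the control range, the other 3 sunitinib tumors and all R+S tumors below it. Its log2 fold change was -1.03 ± 0.68 with sunitinib (adjusted p = 0.429), and -2.30 without sunitinib 6 (adjusted p = 0.0162). With R+S it was -1.73 ± 0.69 (adjusted p = 0.189).

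**Figure D3:**
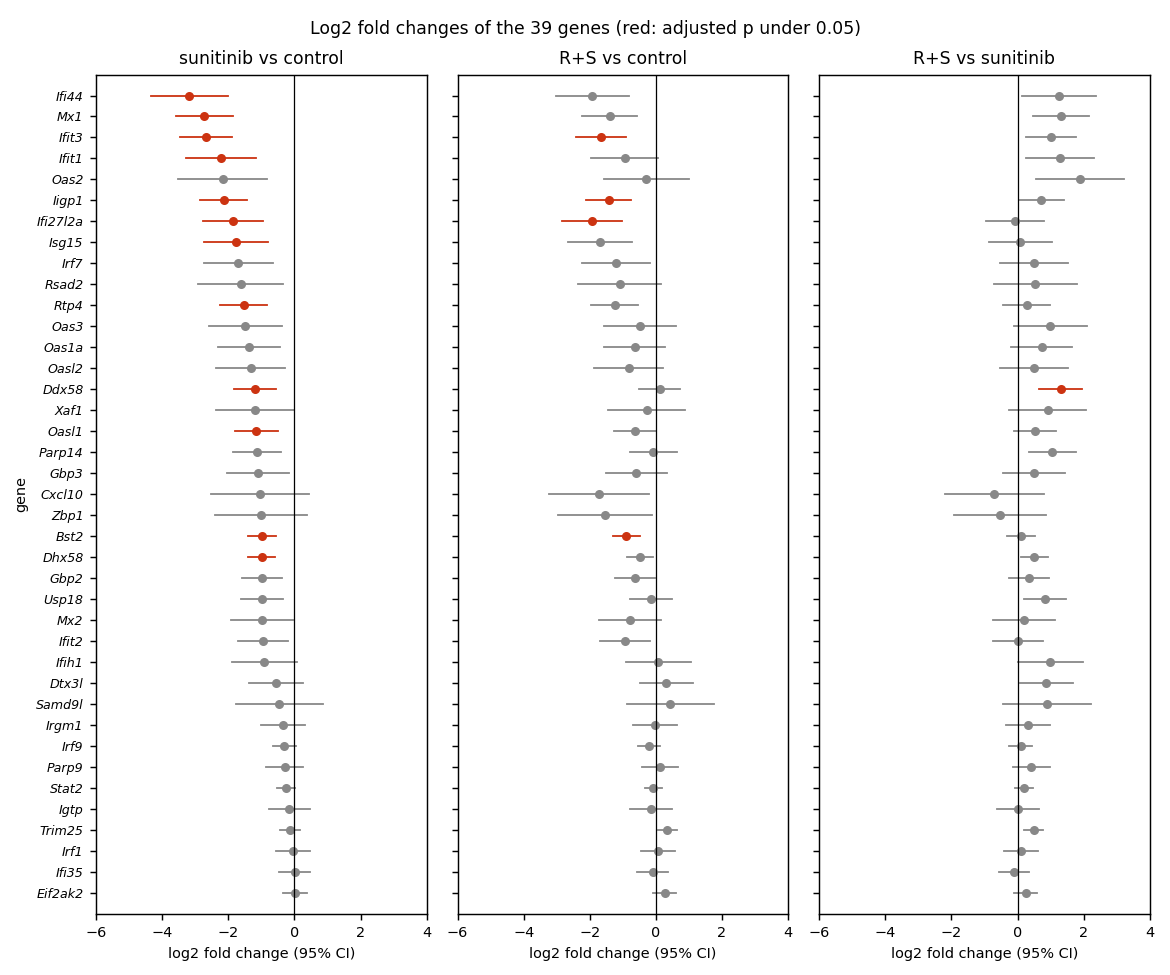
Log2 fold changes of the 39 genes with 95% confidence intervals in the 3 comparisons, ordered by the value in sunitinib against control. Red marks an adjusted p under 0.05: 12 genes in the left panel, 4 in the middle and 1, Ddx58, on the right.

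The 4 genes that fell in both treated groups were Ifit3, Bst2, Iigp1 and Ifi27l2a, all 4 of those called in R+S against control. Their log2 fold changes in R+S against sunitinib were 1.02, 0.10, 0.71 and -0.07, none past the threshold. By contrast Ddx58, Oas2, Ifih1 and Parp14 were close to control in R+S tumors, at 0.11, -0.29, 0.08 and -0.08. Each of the 4 calls in R+S against control was lost when 1 of several single tumors was left out: in 6 of 12 such fits for Ifit3 and Bst2, 8 for Iigp1 and 5 for Ifi27l2a. Leaving out control 1, control 3, R+S 4, R+S 5 or R+S 7 ended all 4, with log2 fold changes across the 12 fits of -1.80 to -1.40 for Ifit3, -0.99 to -0.75 for Bst2, -1.54 to -1.29 for Iigp1 and -2.17 to -1.61 for Ifi27l2a.

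**Figure D4:**
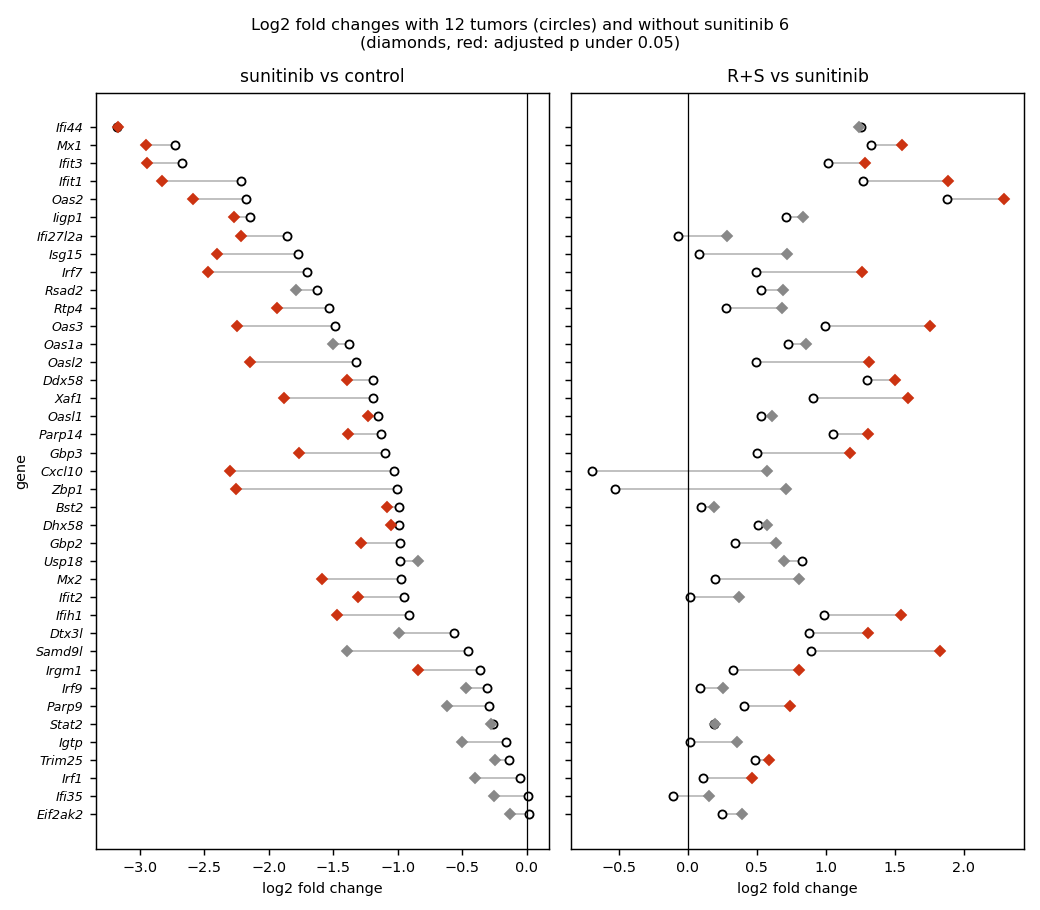
Log2 fold changes of the 39 genes with all 12 tumors (open circles) and without sunitinib 6 (diamonds, red where the adjusted p is under 0.05), for sunitinib against control and R+S against sunitinib. Most diamonds lie farther from 0 than the circles: 26 genes fell in the left panel and 18 rose in the right panel without this tumor.

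Within groups the 39 genes varied together. Their mean deviation from each gene's 12-tumor mean, on the log2 scale, was 1.11 in control 1 and 0.47 to 0.49 in the other controls. It was -0.61, 0.21, -0.73 and -1.50 in sunitinib 5, 6, 8 and 12, and -0.23, 0.17, -0.11 and 0.27 in R+S 4, 5, 7 and 10. Control 1 was the highest control in 35 of the 39 genes, and sunitinib 12 the lowest of all 12 tumors in 33. Such ranks of tumors were not counted over all genes tested. After group means were removed, the 741 pairs of members had a median Pearson's r of 0.714 over the 12 tumors, and 81.5% of pairs exceeded 0.5, beside 15.8% of all gene pairs. Without sunitinib 6 the median was 0.645 over 11 tumors and 73.8% exceeded 0.5, beside 13.2%. The points of each correlation share the same libraries, so these values are a description.

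Upstream of these genes, the interferons themselves were almost not detected. Of 21 ligand genes listed, 17 were matched, and these held 32 reads in all over the 12 tumors, 0 to 8 reads per tumor and at most 2 for any gene in any tumor. Ifnb1 had 1 read, in control 1, and Ifng had 0 to 2 reads per tumor. None could be tested at this depth, and 9 were at 0 in every tumor, where a count of 0 allows up to 3 reads. Sequencing of poly(A) RNA from whole tumors does not show whether interferon protein was present.

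None of the 6 receptor genes passed the threshold in any comparison. Ifnar1, the first chain of the type I receptor, was at 36.6 ± 4.91, 35.7 ± 11.79 and 36.3 ± 9.29 CPM (SD, n = 4) in control, sunitinib and R+S tumors, and Ifnar2, the second chain, had log2 fold changes of 0.12 with sunitinib and -0.07 with R+S. Ifngr1 and Ifngr2, the interferon gamma receptor, were at -0.18 and 0.00 with sunitinib and -0.19 and -0.20 with R+S. The receptor-bound kinases Jak1 (-0.32 and -0.26 with sunitinib and R+S) and Tyk2 (-0.19 and 0.35) did not pass the threshold, and neither did Jak2. None of the 6 feedback inhibitors, such as Socs1 and Socs3, passed the threshold.

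Of 15 genes that act in the induction of interferon, 3 fell with sunitinib: Ifi204, a DNA sensor (-1.56 ± 0.26, adjusted p = 0.00441), Tmem173, which encodes STING (-1.09 ± 0.24, adjusted p = 0.0215), and Tlr9, a sensor of unmethylated DNA (-1.67 ± 0.43, adjusted p = 0.0484). With R+S, Tmem173 fell (-1.08 ± 0.24, adjusted p = 0.0265) and Traf3, an adaptor, rose (0.52 ± 0.13, adjusted p = 0.0443). In R+S against sunitinib, Traf3 (0.58 ± 0.13, adjusted p = 0.0301) and Tlr3, a sensor of double-stranded RNA (1.35 ± 0.30, adjusted p = 0.0295), rose. Of all genes tested, 2.55% fell with sunitinib, while 2.61% fell and 1.55% rose with R+S. In R+S against sunitinib, 2.63% of all genes rose.

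A further 51 interferon-stimulated genes outside the 39 were tested. With sunitinib 18 of them fell (2.55% of all genes) and none rose (1.93%). Of the 51, 48 had a log2 fold change below 0 (46.7% of all genes), with a median of -0.86. The 18 included the GTPases Gbp4 (-2.28) and Gbp9 (-2.37), the Schlafen genes Slfn1 (-2.97), Slfn2 (-1.48), Slfn5 (-2.39) and Slfn8 (-1.49), the nuclear body genes Sp100 (-1.54) and Sp110 (-1.29), the tripartite motif genes Trim30a (-1.95) and Trim34a (-1.56), and the chemokines Cxcl9 (-2.33) and Ccl5 (-1.91). Ifit3b, Phf11d (-2.02), Oas1g (-1.13), Cmpk2 (-0.78) and Nmi (-0.54) fell too, as did Ms4a4c, which had 77 to 205 reads per control and 0 to 8 reads per sunitinib tumor. With R+S, 8 of the 51 fell (2.61% of all genes): Ifit1bl1 (-1.81), Gbp4 (-1.31), Gbp9 (-1.47), Ifitm3 (-1.55), Slfn1 (-2.05), Slfn2 (-1.196), Phf11d (-1.16) and Ms4a4c (-2.20). In R+S against sunitinib, 2 of the 51 rose, Trim34a (1.56) and Znfx1 (0.72), a share near that of all genes (2.63%). These lists, like the 39, were drawn up with results of these data known.

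Markers of other cell types moved with these groups as well, and their part in the results was not tested. Beside the marker counts below, 2.55% of all genes fell and 1.93% rose with sunitinib. With R+S 2.61% fell and 1.55% rose, and 2.63% rose in R+S against sunitinib. The 8 endothelial markers summed to 371 to 526 CPM in controls, 34.3 to 70.7 CPM in sunitinib tumors and 82.0 to 108 CPM in R+S tumors, which is the order of most interferon-stimulated genes, and 7 of the 8 fell in both treated groups while 4 rose in R+S against sunitinib. All 5 erythroid markers fell in both, from 68.7 to 375 CPM in controls to 1.66 to 4.81 CPM with sunitinib and 2.96 to 22.2 CPM with R+S. Conversely 13 of 14 acinar markers, genes of the digestive-enzyme cells around the islets, rose in both, from 40.9 to 121 CPM in controls to 10156 to 37228 CPM with sunitinib and 2590 to 15549 CPM with R+S.

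Leukocyte marker sums overlapped between groups, except that the macrophage sum of every R+S tumor was below that of every control. The 3 pan-leukocyte markers summed to 80.2 to 103 CPM in controls, 38.8 to 86.0 CPM in sunitinib tumors and 68.9 to 109 CPM in R+S tumors, and 1 of the 3, Coro1a, fell with R+S. The 9 macrophage markers summed to 633 to 902, 286 to 874 and 418 to 629 CPM, with 2 of 9 lower with sunitinib (Adgre1 and Mrc1) and 1 with R+S (Mrc1). Markers of T and NK cells summed to 9.92 to 17.2, 6.38 to 18.5 and 9.85 to 16.0 CPM, and none of the 6 tested passed the threshold. By tumor, sunitinib 6, the sunitinib tumor with the highest level of 33 of the 39 genes, had the lowest sums of these 3 leukocyte lists and the highest endothelial sum of its group, 70.7 CPM. Sunitinib 12, the lowest of all 12 tumors in 33 of the 39 genes, had a macrophage sum of 874 CPM, within the control range. Its endothelial sum was the lowest of all, 34.3 CPM. The other groups did not share that endothelial order. Control 1, the highest of all 12 tumors in 24 of the 39 genes, had the lowest endothelial sum of the controls, 371 CPM. R+S 10, with the highest mean deviation of its group, had its lowest endothelial sum, 82.0 CPM. R+S 4, with the lowest mean deviation, had the highest sum, 108 CPM. Within the sunitinib group, the acinar sum was also highest in sunitinib 6, 37228 CPM, and lowest in sunitinib 12, 10156 CPM. B and plasma cell markers summed to 5.79 to 18.2, 2.27 to 10.6 and 3.69 to 7.80 CPM, with 0 and 1 of 5 lower. None of the 4 genes listed for plasmacytoid dendritic cells (Siglech, Ccr9, Runx2 and Tcf4), the main producers of type I interferon in infection, passed the threshold. They summed to 115 to 188 CPM in controls and 132 to 156 CPM in R+S tumors. In sunitinib 5, 6, 8 and 12 they summed to 118, 447, 131 and 79.6 CPM. Which cells these reads came from was not tested. Neutrophil markers summed to at most 0.321 CPM in every tumor, with Ly6g, Camp and Ngp at 0 throughout. Of 9 pericyte and fibroblast markers 2 fell with sunitinib and 1 with R+S, and of 5 duct markers 2 rose with sunitinib and none with R+S. None of the 8 beta-cell markers passed the threshold in any comparison.

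**Figure D5:**
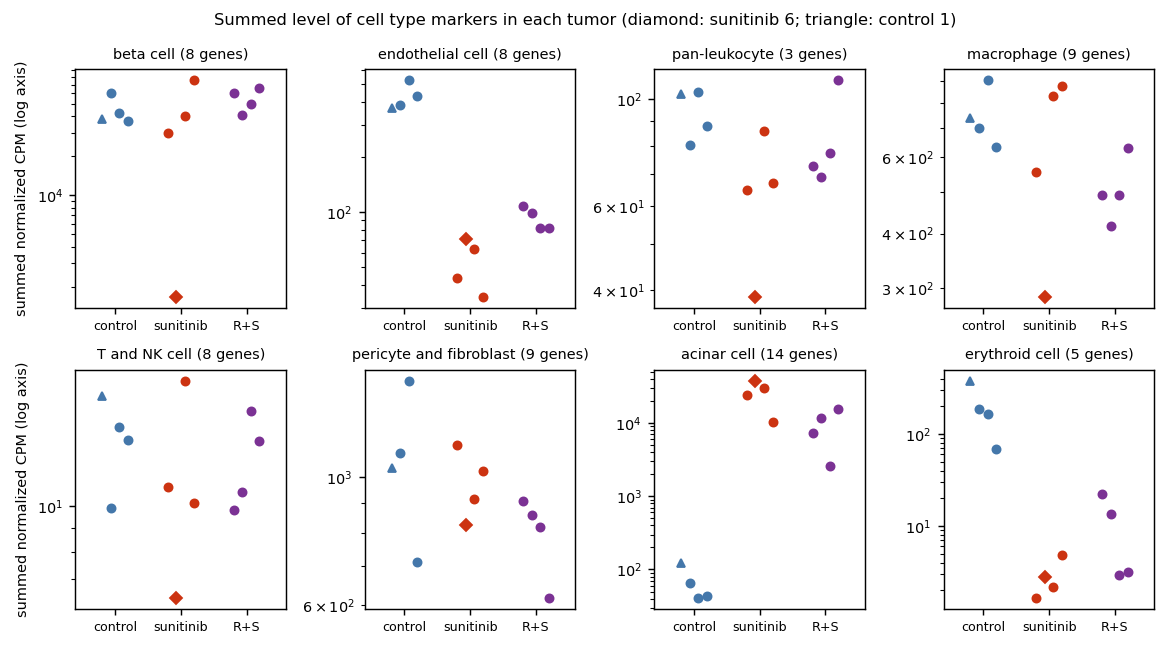
Summed normalized CPM (log axes) of 8 marker lists in each tumor by treatment, 1 panel per list, with the diamond for sunitinib 6 and the triangle for control 1. Endothelial and erythroid sums are lower and acinar sums higher in all treated tumors than in all controls, and sunitinib 6 is lowest of the 12 for the beta cell, pan-leukocyte, macrophage and T and NK cell lists.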

How the data were processed

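The authors deposited, for each of the 12 tumors, the raw count of reads on 38924 Ensembl genes, as whole numbers without normalization, from strand-specific poly(A) libraries. The submitters' processing notes name cutadapt 1.2.1, TopHat2 2.0.9, HTSeq 0.5.4p3 and GRCm38. The annotation release and the strand setting are not given in the sources used here. The 5 closing summary lines of each table were left out, and 0 columns belonged to other series. Symbols and coordinates are from GENCODE M21. Ifna6, Ifna7, Ifna11, Ifnab, Gbp5, Gbp6 and Gbp10 were not matched and are not analysed here. One item of the pathway lists is not reported here.

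Counts were normalized by TMM and tested in 1 quasi-likelihood fit of the 3 groups (edgeR 4.0.16 under R 4.3.3). The filterByExpr settings were 10 for the minimum count and 15 for the total. P-values were adjusted by Benjamini-Hochberg over 16645 genes (threshold 0.05). Each SE was obtained from the F statistic as the log2 fold change over its root. The prior count for log2 CPM was 2. Levels per length used the summed exon length. The fit was tested on simulated counts. Within groups, every pair of tumors differed by more than sampling noise.

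The 39 genes and all lists were chosen with earlier results of these data known. Values for every tumor are given for genes past the threshold in any comparison, and for the most abundant gene per length in each role, and pathway genes are named when past the threshold or when they are core ligands, receptors or kinases. Irf7, Oas2, Parp14 and others outside this rule were chosen after their values were seen. Alternatives were DESeq2 1.42.0, other normalizations and filters, only the 8 tumors of a comparison, summing treated tumors of one title prefix, and each tumor left out.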

Additional observations from a re-analysis of the deposited data

Results flagged for a closer look

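Within each group of 4, the highest or lowest tumor was compared with the rest by the ratio of its gap to the group's whole range, and 25 of 120 groups exceeded Dixon's 95% critical ratio, which chance passes in about 1 in 20 groups (6 of 120). The genes share their libraries, so these are not independent. Of the 25, 10 were in control 1, 7 in sunitinib 6, 3 in R+S 5, 2 in R+S 10 and 1 each in R+S 4, sunitinib 8 and sunitinib 12.

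Control 1 was above the other controls for Zbp1 (9.99 CPM), Trim25 (102 CPM), Oas2 (40.1 CPM), Oas3 (6.48 CPM), Oasl2 (54.1 CPM), Ifit1 (20.7 CPM), Igtp (21.8 CPM), Parp9 (28.4 CPM) and Dtx3l (26.4 CPM), and for the mean deviation of the 39 genes (1.11 on the log2 scale). Sunitinib 6 was above its group for Irf1 (79.7 CPM), Zbp1 (7.85 CPM), Oas3 (3.29 CPM), Oasl2 (30.6 CPM), Igtp (21.0 CPM), Rtp4 (5.80 CPM) and Cxcl10 (6.55 CPM). This is the tumor with the low beta-cell markers.

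Among R+S tumors, R+S 5 was above its group for Parp9 (32.7 CPM), Dtx3l (43.5 CPM) and Xaf1 (11.1 CPM), R+S 10 for Oas3 (5.00 CPM) and Mx1 (2.18 CPM), and R+S 4 was below it for Gbp2 (4.49 CPM). Sunitinib 8 was above its group for Usp18 (32.7 CPM), and sunitinib 12 below it for Rsad2 (0.513 CPM).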

How the results depend on the processing

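No paired analysis was possible because any 2 groups share at most 1 replicate number. The log2 fold changes kept their sign in all 17 calls tested under each alternative, and Dhx58, Ifit3, Mx1, Bst2, Iigp1 and Ifi44 stayed past the threshold for sunitinib against control wherever they were tested (Ifi44 was not, with 10 counts asked for in every tumor). The cause of the changes was not tested.

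Of the 39 genes, those lower with sunitinib were 12 (2.55% of all genes), and 20 with DESeq2 (3.9%). They were 6 with only the 8 tumors of the comparison (1.47%). With 1 tumor left out they were 6 (without control 1, 2%) to 26 (without sunitinib 6, 3.34%), with 7 without sunitinib 8 (2.54%). Those lower with R+S were 4 (2.61% of all genes), and 8 with DESeq2 (5.21%), 13 with only the 8 tumors (9.11%), and 0 to 11 with 1 tumor left out (1.1 to 5.56%). The 0 came without control 1, control 3, R+S 4, R+S 5 or R+S 7 (1.1 to 2.05%), and the 11 without sunitinib 6 (5.56%). The count was 2 without control 2 (1.61%) or control 4 (1.52%), and 8 without sunitinib 12 (4.36%). Those higher in R+S than in sunitinib were 1 (2.63% of all genes), and 9 with DESeq2 (6.97%). They were 3 with 10 counts in every tumor (3.14%) and 0 with only the 8 tumors (0%). With 1 tumor left out they were 0 (without sunitinib 12 or any R+S tumor, 0 to 1.16%) to 18 (without sunitinib 6, 4.17%). They were 2 without control 1 (1.89%) and 3 without sunitinib 5 (6.93%).

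Of the 82 pathway genes, those lower with R+S were 9 (2.61% of all genes), and 20 with DESeq2 (5.21%, 101 genes matched). They were 3 without the filter (1.21%, 92 tested) and 18 without sunitinib 6 (5.56%, chosen after seeing the data). The 1 higher with R+S (1.55% of all genes) became 0 by library size alone (1.24%) and without the filter (0.68%). Against sunitinib, 0 were lower (4.58% of all genes), and 1 with DESeq2 (10.3%) or without sunitinib 6 (5.89%). Those higher were 5 (2.63%), and 22 with DESeq2 (6.97%) and 10 without sunitinib 6 (4.17%). Of the 28 genes with a promoter window, 57.1% held the core in any window, and 82.1% the shorter core. Genes under about 1 CPM rest on few reads, such as 3 for Ifi44 in sunitinib 12.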
